A study of Homo sapiens with 8 samples.

Results

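Expression of 54 genes of DNA replication and the S-phase checkpoint was examined in MDAMB231 cells, an established triple-negative breast cancer cell line. The genes were listed by their roles in origin licensing, helicase activation, DNA synthesis, clamp loading, Okazaki fragment processing and checkpoint signalling. They were matched by symbol to the Ensembl identifiers of the raw counts, and 54 of 54 were found among 58051 genes. 3′-end mRNA sequencing was used, in which each read marks the end of a polyadenylated transcript, on 8 samples in 3 groups. Parental, unmodified cells gave 2 samples. SDHB-KO cells, in which TALEN nucleases had disrupted the first exon of SDHB and which were selected with hygromycin, gave 3 samples. SDHB-KO SDHA-low cells, which carried the same knockout plus an shRNA against SDHA and were selected with puromycin, gave 3 samples and are called SDHA-low from here on. SDHA and SDHB are subunits of succinate dehydrogenase, also called respiratory complex II. No agent was applied to any group, and all were grown in full medium to the same confluency. The sources used here do not state whether the SDHB-KO line was 1 clone or whether the SDHB-KO samples carried an empty vector. The study used 2 shRNAs against SDHA, and the sample labels do not say which of them the SDHA-low samples carried. Differences between the lines other than the intended modification therefore cannot be told apart from it. The comparison of SDHB-KO with parental cells addressed the loss of assembled complex II, and that of SDHA-low with SDHB-KO cells addressed the loss of the SDHA that stays in the knockout. The replicates are numbered as biological replicates without mention of separate sublines, so p-values measure the spread between these samples.

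Replication is prepared in G1, when the origin recognition complex with CDC6 and CDT1 loads the MCM2 to MCM7 helicase onto origins, and geminin then blocks repeat loading. In S phase CDC45 and the GINS complex turn the loaded MCM ring into an active helicase, the single-strand binding protein RPA coats the unwound DNA, and DNA polymerases copy it with the help of the sliding clamp PCNA and its loader RFC. FEN1 and LIG1 trim and seal the Okazaki fragments of the lagging strand. ATR with ATRIP and TOPBP1, helped by claspin, activates the kinase CHEK1 when forks stall, and WEE1 restrains entry into mitosis. Many of these genes are transcribed in waves through the cell cycle under E2F factors, so their RNA in a dividing culture depends on how many cells are in late G1 and S phase. In bulk RNA a change in the share of cells in these phases and a change in RNA per cell cannot be told apart. By flow cytometry the study reported S-phase arrest of SDHB-KO cells and partial recovery in SDHA-low cells. Whether this bears on the RNA values given here was not tested.

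The promoters are shown for 4 members because E2F-driven transcription is the trait these genes are best known to share. Sequences came from RefSeq (GRCh38.p14) in windows of 250 bases before to 50 bases after each annotated start, and 46 of the 54 members had a window (62 windows). MCM4, MCM5, GINS4, POLD3, RPA2, RPA3, DNA2 and WEE1 were not matched. An E2F-type motif was searched as TTTCCCGC, TTTCGCGC, TTTGCCGC or TTTGGCGC on both strands, with overlapping matches counted separately. At least 1 match was present for 23 of the 46 members (50%) and in 37.1% of their windows, against 3.31% of all 35116 windows. The letters CCAAT on either strand were present for 28 members and in 58.1% of the members' windows, against 34.6% of all windows. The CHR-type letters TTTGAA or TTCGAA were present for 3 members and in 4.84% of the members' windows, against 16.4% of all. The 150 bases before the start were taken for LIG1 (chr19:48170345-48170494), MCM6 (chr2:135876444-135876593), MCM7 (chr7:100101398-100101547) and PCNA (chr20:5126623-5126772), all on the minus strand. MCM7 had 3 windows and PCNA had 2, and the window with the most E2F-type matches in the bases shown was taken. All 4 genes shown held a match, so they do not stand for the members as a whole. They are written 5′ to 3′ with the E2F-type matches in capitals. LIG1 had the largest well-counted difference among the members, MCM6 and MCM7 belong to the helicase ring, and PCNA is the clamp.
LIG1: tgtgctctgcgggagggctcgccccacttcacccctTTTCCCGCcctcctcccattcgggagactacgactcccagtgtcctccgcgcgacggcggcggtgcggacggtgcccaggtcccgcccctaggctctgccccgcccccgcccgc
MCM6: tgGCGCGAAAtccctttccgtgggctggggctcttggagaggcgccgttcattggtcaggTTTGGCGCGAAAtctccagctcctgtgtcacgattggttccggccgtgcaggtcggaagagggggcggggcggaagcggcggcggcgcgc
MCM7: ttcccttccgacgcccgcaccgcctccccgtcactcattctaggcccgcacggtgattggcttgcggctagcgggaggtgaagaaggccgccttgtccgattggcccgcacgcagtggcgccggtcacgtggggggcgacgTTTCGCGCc
PCNA: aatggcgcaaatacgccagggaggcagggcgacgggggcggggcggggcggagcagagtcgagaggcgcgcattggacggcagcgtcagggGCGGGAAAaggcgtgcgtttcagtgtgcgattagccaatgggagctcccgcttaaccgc
The match of LIG1 began 114 bases before the start, that of PCNA 59 and that of MCM7 9 bases before it. In MCM6 matches began 148, 90 and 86 bases before the start, the last 2 of them overlapping. PRIM2 and FEN1 held no match in these windows. A match of letters is a description and not evidence of binding.

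The samples held 773042 to 1427141 reads counted on genes, with SDHA-low replicate 2 the deepest. Values are given as CPM, the counts of a gene scaled by the sample's reads on the genes tested and its TMM factor. A count of 3, taken as the floor, corresponded to 2.238 CPM in SDHA-low replicate 2 and up to 4.105 CPM in SDHB-KO replicate 1. The chi-squared per degree of freedom between replicates of a group was 2.07 to 10.2, and the 2 highest values, 9.44 and 10.2, involved SDHA-low replicate 2. SDHA had 64 and 69 counts in parental, 108, 121 and 140 in SDHB-KO and 7, 17 and 16 in SDHA-low samples, so the shRNA groups match their labels. SDHB had 0 to 4 counts in each sample, and its counted end lies outside the targeted exon, so it does not test the knockout. Of 8 markers of mesenchymal breast cancer lines 7 were tested, with VIM at 685 to 998.9 CPM and CD44 at 198.4 to 323.4 CPM. S100A4, also tested, had 3 to 13 counts, and ANXA1, with 0 to 5 counts, was not tested. ESR1 and PGR, which define luminal cells, had 0 counts in all 8 samples, and EPCAM and CDH1 had at most 2. The luminal list was not silent throughout, since 4 of its 10 genes were tested, with KRT18 at 951 to 1699 CPM, KRT8 at 146.9 to 272.3, KRT19 at 83.4 to 147.4 and GATA3 at 8.91 to 22.2 CPM. Of 6 fibroblast markers 0 reached the count minimum. Of the marker lists MSN alone passed the test, in SDHA-low against parental cells (log2 fold change 0.84, edgeR adjusted p = 0.091), a call lost without either parental sample, SDHB-KO replicate 1 or 3 or SDHA-low replicate 1 (0.11 to 0.84) and with only the compared groups in the fit (0.14).

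Of the 54 members, 43 exceeded the mean normalised count of 5 that was required for testing among 7550 genes tested. In SDHB-KO against parental cells LIG1 and PRIM2 rose and 0 members fell, which is 4.65% of the 43 (edgeR quasi-likelihood test, Benjamini-Hochberg adjusted p below 0.1), beside 5.54% of all genes tested. In SDHA-low against SDHB-KO cells 0 members passed this test, beside 1.51% of all genes, and in SDHA-low against parental cells 0 passed, beside 0.914%. The numbers of members at an unadjusted p under 0.05 were 5, 10 and 6 in the same order (11.6%, 23.3% and 14% of the 43), beside 17.5%, 12.1% and 12.3% of all genes. DESeq2 called 1, 1 and 0 of the 22, 24 and 22 members to which it gave an adjusted p, namely LIG1 in the first and FEN1 in the second comparison, while it called 12.4%, 2.85% and 1.99% of all genes with an adjusted p. The members' median on the log2 scale was -0.06 for SDHB-KO against parental, 0.08 in SDHA-low against SDHB-KO and -0.04 in SDHA-low against parental cells, while over all genes it was 0.00, 0.01 and 0.02. These comparisons share samples and are given side by side only.

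The members were also sorted by whether the samples of the groups compared overlapped in CPM. In SDHB-KO against parental cells 14 of the 43 members (32.6%) did not overlap, 6 higher and 8 lower, beside 37.9% of all genes. For SDHA-low against SDHB-KO the number was 12 (27.9%), 8 higher and 4 lower, beside 17.4%. For SDHA-low against parental it was 15 (34.9%), 8 higher and 7 lower, beside 30.7%. In the heat map of all members tested no column was uniformly high or low, and the median deviation of the members from their own mean ran from -0.10 in SDHB-KO replicate 3 to 0.19 log2 in SDHA-low replicate 1.

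**Figure D1:**
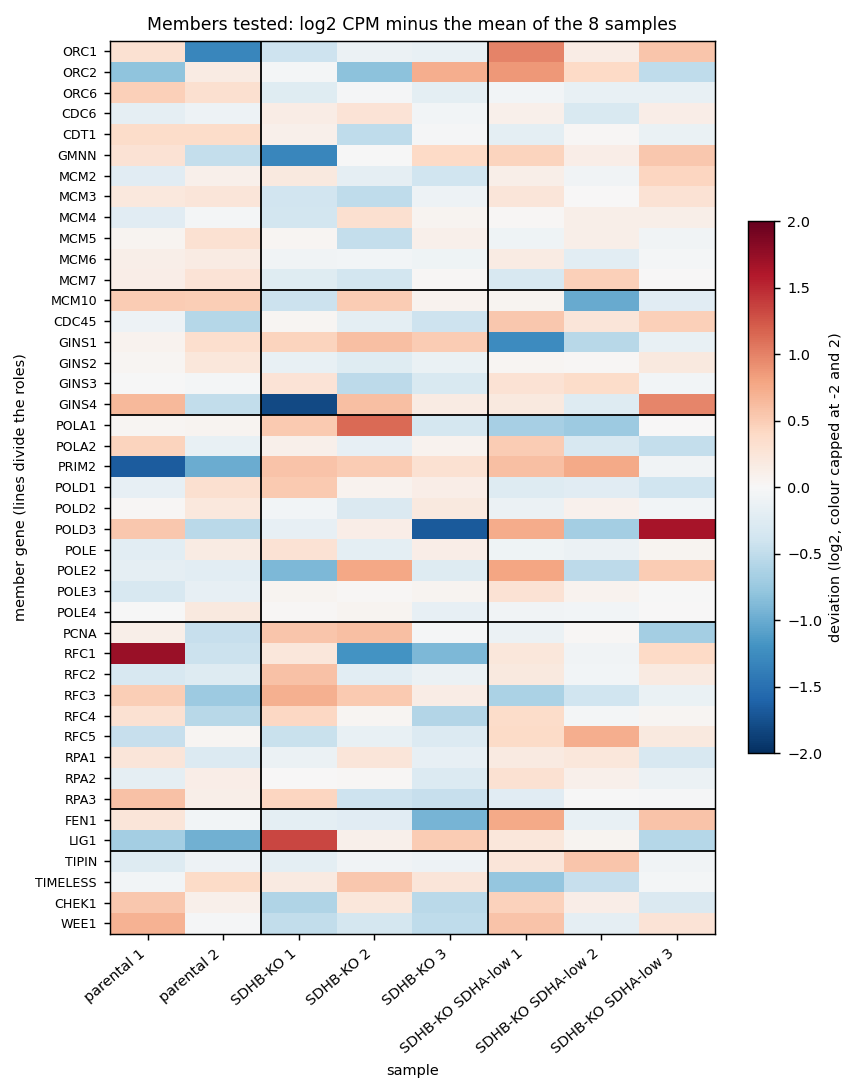
Heat map of the 43 members tested (rows, ordered by role) in the 8 samples (columns). Colour shows log2 CPM minus the mean of the 8 samples, red above and blue below that mean, capped at -2 and 2; LIG1 and PRIM2 are blue in both parental samples, and most other rows show no block by group.

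The member with the smallest p in SDHB-KO against parental cells was LIG1, a gene of Okazaki fragment processing. LIG1, the ligase that seals the fragments, had 48.6 and 39.8 CPM in parental, 202.5, 85.6 and 113.3 in SDHB-KO and 92.9, 82.1 and 52.4 in SDHA-low samples. All SDHB-KO and SDHA-low samples lay above both parental samples, and SDHB-KO replicate 1 stood well above the other two of its group. The gene (ENSG00000105486, chr19:48115445-48170603, GRCh38, minus strand) rose in SDHB-KO against parental cells by 1.58 on the log2 scale, or 2.99-fold (SE 0.35, 95% interval 0.85 to 2.31, edgeR adjusted p = 0.02), and stood 67th by p of all genes tested. The adjusted p was 0.29 without parental replicate 1, 0.2 without parental replicate 2 and 0.13 without SDHB-KO replicate 1, with log2 fold changes of 1.73, 1.45 and 1.17. Over all alternatives it ran from 0.00016 to 0.29. SDHA-low cells lay between the other groups, at a log2 difference of -0.81 from SDHB-KO (SE 0.29, edgeR adjusted p = 0.24) and 0.77 from parental cells (SE 0.35, edgeR adjusted p = 0.37), neither of which passed the test.

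FEN1, the flap endonuclease that acts just before LIG1, had 378.3 and 305.3 CPM in parental, 277.8, 272.4 and 166.2 in SDHB-KO and 539.4, 288.0 and 472.5 in SDHA-low samples. The SDHB-KO samples were the lowest and overlapped neither of the other groups. The log2 difference of SDHB-KO from parental cells was -0.52 (SE 0.27, edgeR adjusted p = 0.32), and that of SDHA-low from SDHB-KO cells was 0.86 (95% interval 0.36 to 1.35, edgeR adjusted p = 0.11), the smallest p of any member in that comparison. The latter missed the threshold in the main test and passed it in DESeq2 (adjusted p = 0.05), without a filter on low counts (edgeR adjusted p = 0.017) and without SDHA-low replicate 2 (edgeR adjusted p = 0.0015), while over all alternatives the adjusted p ran from 0.0015 to 0.4. FEN1 and LIG1 thus had opposite signs in both of these comparisons. FEN1 has an annotated pseudogene, FEN1P1, and reads that could come from either are uncertain and may be missing from its counts. DNA2, a helicase and nuclease for long flaps, had 0 to 4 counts per sample and was not tested.

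**Figure D2:**
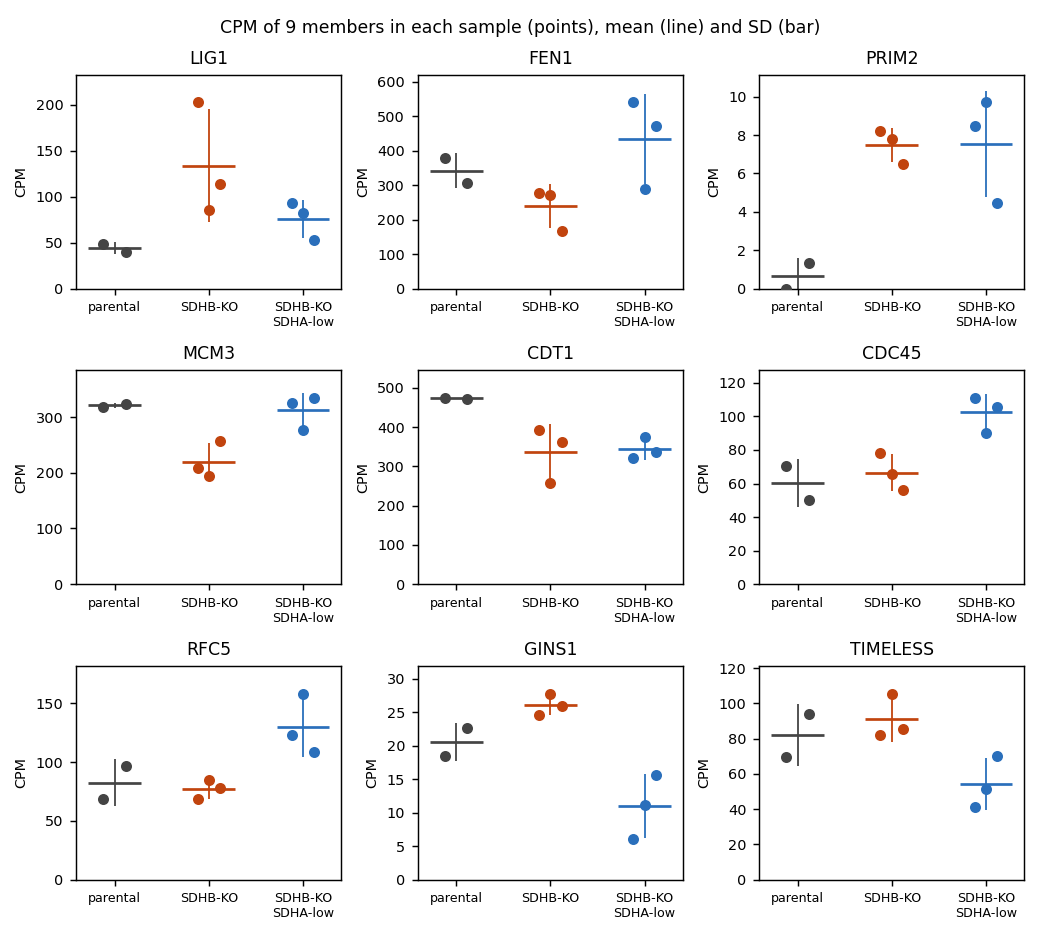
CPM of 9 members in each sample (points), by group, with the group mean (horizontal line) and SD (vertical bar); n is 2 parental, 3 SDHB-KO and 3 SDHA-low samples. LIG1 is lowest in parental cells, FEN1 lowest in SDHB-KO cells, and PRIM2 rests on at most 13 counts in a sample. All genes shown had groups without overlap in some comparison, so they do not stand for the members as a whole.

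Among the polymerase genes PRIM2, the large subunit of primase that starts each fragment, was the other member called. Its counts were 0 and 1 in parental, 6, 7 and 6 in SDHB-KO and 7, 13 and 4 in SDHA-low samples. Both parental samples lay below the floor of 3 counts and below each sample of the other groups. The gene (ENSG00000146143, chr6:57314805-57646850, GRCh38, plus strand) rose in SDHB-KO cells (edgeR adjusted p = 0.096). Summed over samples and scaled by their reads, the ratio of SDHB-KO to parental was 11.7, with an exact counting interval of 1.86 to 485, and that of SDHA-low to parental was 12.4, with an interval of 2.02 to 510 (edgeR adjusted p = 0.17). Between SDHA-low and SDHB-KO cells the ratio was 1.06, with an interval of 0.558 to 2.05. These intervals cover counting error only. The call was lost at an adjusted p of 0.05, without a filter on low counts (edgeR adjusted p = 0.13) and without either parental sample. Of the alternatives 2 kept the call and 5 lost it, and the rest gave PRIM2 no adjusted p. With 1 sample left out, the log2 fold change was 2.37 to 5.82 over the 3 fits that tested it. Reads shared with the pseudogene PRIM2BP cannot be told apart and may be missing from the PRIM2 counts. PRIM1, the catalytic primase subunit, had 1 to 4 counts per sample and was not tested, and the end of its transcript overlaps NACA on the same strand.

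POLA1, the catalytic subunit of polymerase alpha, had 8 and 7 counts in parental, 10, 20 and 6 in SDHB-KO and 4, 6 and 8 in SDHA-low samples. The SDHB-KO samples were spread across the range of the others, and the log2 difference of SDHA-low from SDHB-KO was -1.22 (SE 0.56, edgeR adjusted p = 0.39). POLD1, the catalytic subunit of polymerase delta, had 61.3 and 86.3 CPM in parental, 99.9, 72.3 and 75.5 in SDHB-KO and 56.7, 58.2 and 51.3 in SDHA-low samples. All SDHA-low samples were below the others, at a log2 difference of -0.57 from SDHB-KO (95% interval -1.07 to -0.06, edgeR adjusted p = 0.35) and -0.41 from parental cells (edgeR adjusted p = 0.58). The end of POLD1 overlaps ENSG00000142539 on the same strand, so reads there could belong to either and may be missing from its counts. POLD3, an accessory subunit, had 7 and 2, then 3, 5 and 0, then 8, 3 and 18 counts in the same order of groups. Its largest log2 difference, 1.65 between SDHA-low and SDHB-KO (SE 0.83, edgeR adjusted p = 0.43), rested mostly on SDHA-low replicate 3.

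POLE, the catalytic subunit of the leading-strand polymerase epsilon, had 50.9 and 66.4 CPM in parental, 72.5, 51.1 and 64.8 in SDHB-KO and 55.5, 54.5 and 61.3 in SDHA-low samples. The groups overlapped, and the log2 differences were 0.10, -0.13 and -0.04 in the order SDHB-KO against parental, SDHA-low against SDHB-KO and SDHA-low against parental. The well-counted accessory subunits were estimated most precisely. For POLD2 the 3 differences were -0.15, 0.01 and -0.14 and for POLE4 -0.12, -0.01 and -0.13, each with an SE of 0.18 to 0.20. The histone-fold subunit POLE3, chosen after its values were seen, had 217.5 and 241.6 CPM in parental samples against 268.5 to 333.1 in the other 6, without overlap, at log2 differences of 0.29 (edgeR adjusted p = 0.52) and 0.36 (edgeR adjusted p = 0.51) from parental cells. POLA2 and POLE2, accessory subunits of polymerases alpha and epsilon, overlapped between all groups, with log2 differences of -0.27 to 0.62. POLD4 was listed at 0 in all 8 samples, which allows up to the floor of 2.238 to 4.105 CPM.

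Most origin licensing genes had lower values in SDHB-KO than in parental cells, but 0 of 12 tested were called, beside 5.54% of all genes. A log2 fold change above 0 was found for 4 of them, beside 3766 of all 7550 genes tested. Their median was -0.17, beside 0.00 over all genes. The loading factor CDT1 had 474.3 and 472.6 CPM in parental, 392.7, 257.9 and 361.5 in SDHB-KO and 322.2, 374.6 and 336.5 in SDHA-low samples. All 6 SDHB-KO and SDHA-low samples lay below both parental samples. The log2 differences from parental cells were -0.49 (95% interval -0.94 to -0.04, edgeR adjusted p = 0.23) in SDHB-KO and -0.46 (95% interval -0.90 to -0.01, edgeR adjusted p = 0.38) in SDHA-low cells. The licensing ATPase CDC6 had 46.3 and 49.1 CPM in parental, 58.8, 64.5 and 50.7 in SDHB-KO and 56.7, 42.5 and 57.9 in SDHA-low samples. Its SDHB-KO samples were all above the parental ones, at 0.28 on the log2 scale (SE 0.29, edgeR adjusted p = 0.67). GMNN, which encodes geminin, had 11 and 5 counts in parental, 2, 9 and 13 in SDHB-KO and 12, 15 and 14 in SDHA-low samples, and its groups overlapped in all comparisons.

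The helicase ring genes were counted well for MCM2, MCM3, MCM5 and MCM7. MCM7 had 851.5 and 941.2 CPM in parental, 655.4, 600.3 and 786.7 in SDHB-KO and 621.5, 1083 and 782.2 in SDHA-low samples. The SDHB-KO samples lay below both parental ones, and the SDHA-low samples spanned both groups. The log2 differences of MCM7 were -0.40 (95% interval -0.87 to 0.07, edgeR adjusted p = 0.38), 0.29 (edgeR adjusted p = 0.61) and -0.11 (edgeR adjusted p = 0.88), in the order used for POLE. MCM5 had 563.4 and 670.4 CPM in parental, 559.6, 388.0 and 581.6 in SDHB-KO and 512.9, 589.4 and 519.3 in SDHA-low samples. MCM2 had 240.6 and 302.7 CPM in parental, 322.9, 249.0 and 213.7 in SDHB-KO and 306.5, 268.6 and 377.7 in SDHA-low samples. Both genes overlapped between all groups, with log2 differences of -0.28 to 0.09 for MCM5 and -0.05 to 0.28 for MCM2.

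MCM3 and RFC5 were chosen for description after their values were seen. MCM3 had 318.2 and 323.9 CPM in parental, 209.3, 193.4 and 256.8 in SDHB-KO and 324.6, 277.6 and 334.3 in SDHA-low samples. The SDHB-KO samples were the lowest and overlapped no other group. The log2 difference was -0.54 from parental cells (95% interval -0.99 to -0.10, edgeR adjusted p = 0.17), and that of SDHA-low from SDHB-KO was 0.50 (95% interval 0.10 to 0.90, edgeR adjusted p = 0.28). Neither passed the test, although MCM3 was called lower in SDHB-KO against parental cells when SDHA-low replicate 2 was left out. MCM4 and MCM6 had log2 differences of -0.24 to 0.22 in the 3 comparisons, with SEs of up to 0.51. Within the origin recognition complex ORC1, its large ATPase subunit, had 12.7 and 2.66 CPM in parental, 6.84, 8.89 and 8.63 in SDHB-KO and 21.7, 11.2 and 15.6 in SDHA-low samples. The SDHA-low samples were above all SDHB-KO samples, at 0.94 on the log2 scale (95% interval -0.15 to 2.03, edgeR adjusted p = 0.48). ORC2 and ORC6 had 2 to 13 counts per sample with no call, and ORC3 (0 to 5 counts) and ORC5 (1 to 9 counts) were not tested.

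In helicase activation, CDC45 was highest in SDHA-low cells. This helicase cofactor had 70.6 and 50.4 CPM in parental, 78.0, 65.6 and 56.1 in SDHB-KO and 111.0, 90.3 and 105.9 in SDHA-low samples. The SDHA-low samples overlapped neither other group, while parental and SDHB-KO samples overlapped. The log2 differences were 0.62 from SDHB-KO (95% interval 0.13 to 1.11, edgeR adjusted p = 0.27) and 0.75 from parental cells (95% interval 0.19 to 1.31, edgeR adjusted p = 0.24), neither past the threshold. GINS1, a subunit of the GINS complex, was lowest in SDHA-low cells, with 18.5 and 22.6 CPM in parental, 24.6, 27.8 and 25.9 in SDHB-KO and 6.03, 11.2 and 15.6 in SDHA-low samples. Its SDHA-low samples were below all others, at a log2 difference of -1.23 from SDHB-KO (95% interval -2.08 to -0.39, edgeR adjusted p = 0.2) and -0.88 from parental cells (95% interval -1.85 to 0.08, edgeR adjusted p = 0.45). The partner subunits GINS2, GINS3 and GINS4 had log2 differences of 0.26, 0.41 and 0.42 between SDHA-low and SDHB-KO cells, on the other side of 0 from GINS1 and also without a call.

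MCM10, which binds the helicase during its activation, had 25.5 and 25.2 CPM in parental, 12.3, 25.6 and 18.3 in SDHB-KO and 18.1, 7.46 and 14.5 in SDHA-low samples. The SDHA-low samples were below both parental ones, at a log2 difference of -0.97 (95% interval -1.95 to 0.01, edgeR adjusted p = 0.42). CDC7 and its activator DBF4, the kinase that fires origins, had 0 to 4 counts and 1 to 4 counts per sample and were not tested.

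The clamp PCNA had 28.9 and 18.6 CPM in parental, 39.7, 41.1 and 25.9 in SDHB-KO and 24.1, 26.9 and 15.6 in SDHA-low samples. The groups overlapped in all comparisons, and the log2 differences were 0.56 (SE 0.40, edgeR adjusted p = 0.49), -0.66 (SE 0.35, edgeR adjusted p = 0.46) and -0.09 (SE 0.41, edgeR adjusted p = 0.95) in the order used for POLE. PCNA has 3 annotated pseudogenes, and reads that fit more than 1 copy are uncertain and may be missing from its counts. Of the clamp loader, RFC1, the large subunit, had 27 and 4 counts in parental, 7, 2 and 3 in SDHB-KO and 8, 10 and 10 in SDHA-low samples. Parental replicate 1 alone was high, and parental replicate 2 lay within the SDHB-KO range. The log2 difference of SDHB-KO from parental cells was -1.93 (SE 0.70, edgeR adjusted p = 0.14), the lowest of the members. It was -0.15 (adjusted p = 0.98) without parental replicate 1 and -2.71 (adjusted p = 0.16) without SDHB-KO replicate 1. The gene was called lower with no filter on low counts or with only the compared groups in the fit (edgeR adjusted p = 0.089 in each) and without SDHA-low replicate 2 (edgeR adjusted p = 0.079). That of SDHA-low from parental cells was -0.99 and became 0.79 when parental replicate 1 was left out.

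RFC5, a small loader subunit, had 68.3 and 96.9 CPM in parental, 68.4, 84.5 and 77.7 in SDHB-KO and 123.1, 158.2 and 108.1 in SDHA-low samples. The SDHA-low samples were above all others, at log2 differences of 0.76 from SDHB-KO (95% interval 0.28 to 1.24, edgeR adjusted p = 0.16) and 0.66 from parental cells (95% interval 0.12 to 1.21, edgeR adjusted p = 0.29). RFC3, another small subunit, had 16 and 5 counts in parental, 16, 17 and 13 in SDHB-KO and 6, 12 and 10 in SDHA-low samples, with a log2 difference of -0.98 between the last 2 groups (SE 0.47, edgeR adjusted p = 0.41). Subunits of 1 complex therefore lay on both sides of 0 in the same comparison. RFC2 and RFC4 had log2 differences of -0.02 to 0.43 with no call. RPA1, the large subunit of the single-strand binding protein, had 177.0 and 122.1 CPM in parental, 136.8, 175.6 and 132.7 in SDHB-KO and 169.0, 173.8 and 118.1 in SDHA-low samples. Its groups overlapped throughout, and the intervals of its 3 differences lay between -0.54 and 0.56 on the log2 scale. RPA2 and RPA3 had log2 differences of -0.49 to 0.19.

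Checkpoint genes were the least well counted role, with 4 of 8 tested. Of these 0 were called in the 3 comparisons, beside 5.54%, 1.51% and 0.914% of all genes, in the order used for POLE. TIMELESS, which with TIPIN holds the fork together, had 69.4 and 94.3 CPM in parental, 82.1, 105.6 and 85.3 in SDHB-KO and 41.0, 51.5 and 70.2 in SDHA-low samples. The SDHA-low samples were below all SDHB-KO samples and overlapped the parental ones. Its log2 differences were -0.75 from SDHB-KO (95% interval -1.27 to -0.22, edgeR adjusted p = 0.21) and -0.59 from parental cells (SE 0.28, edgeR adjusted p = 0.41). TIPIN differed by 0.47 (SE 0.43) and 0.54 (SE 0.49) in the same comparisons. CHEK1, the effector kinase, had 10 and 6 counts in parental, 3, 8 and 4 in SDHB-KO and 9, 11 and 5 in SDHA-low samples, with overlap between all groups.

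WEE1 had 27.8 and 15.9 CPM in parental, 10.9, 12.2 and 10.8 in SDHB-KO and 25.3, 14.2 and 20.1 in SDHA-low samples. The SDHB-KO samples were the lowest of the 8 and overlapped no other group. The log2 difference was -0.95 from parental cells (95% interval -1.93 to 0.03, edgeR adjusted p = 0.3), and that of SDHA-low from SDHB-KO was 0.78 (95% interval -0.11 to 1.66, edgeR adjusted p = 0.48). ATR, the apical kinase, had 6 and 2 counts in parental, 4, 2 and 0 in SDHB-KO and 4, 1 and 2 in SDHA-low samples. CLSPN, which encodes claspin, had 8 and 6, then 2, 4 and 6, then 2, 8 and 1 counts. Neither was tested, nor was TOPBP1 with 1 to 9 counts. ATRIP was listed at 0 in all 8 samples, and its transcript end overlaps TREX1 on the same strand.

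CPM was also summed over the members tested, in total and by role. The sum of all 43 members was 5469 and 5768 in parental, 5276, 4577 and 5079 in SDHB-KO and 5419, 5656 and 5496 in SDHA-low samples, so the SDHB-KO samples were the lowest. The licensing genes summed to 2728 ± 184 CPM in parental (SD, n = 2), 2169 ± 265 in SDHB-KO (SD, n = 3) and 2515 ± 237 in SDHA-low samples (SD, n = 3), with MCM7 holding 32.4% of the sum. The SDHB-KO samples, at 2277, 1868 and 2363, lay below both parental samples and overlapped the SDHA-low ones, at 2274, 2747 and 2525. The helicase activation genes summed to 293.4 ± 5.61, 264.4 ± 7.54 and 314.7 ± 25.5 CPM, with the SDHB-KO samples below all others. The polymerase genes summed to 1586 ± 145, 1545 ± 105 and 1533 ± 28.6 CPM and overlapped between all groups. The clamp, loader and RPA genes summed to 500.2 ± 61.6, 506.3 ± 67.6 and 553 ± 55 CPM, also with overlap. FEN1 and LIG1 summed to 386 ± 57.8, 372.6 ± 101 and 509.1 ± 132 CPM, of which FEN1 held 79%. Checkpoint genes summed to 124.6 ± 7.73, 119.8 ± 16.8 and 98.3 ± 8.46 CPM, of which TIMELESS held 66.3%. Such sums follow their most counted genes and were not tested.

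**Figure D3:**
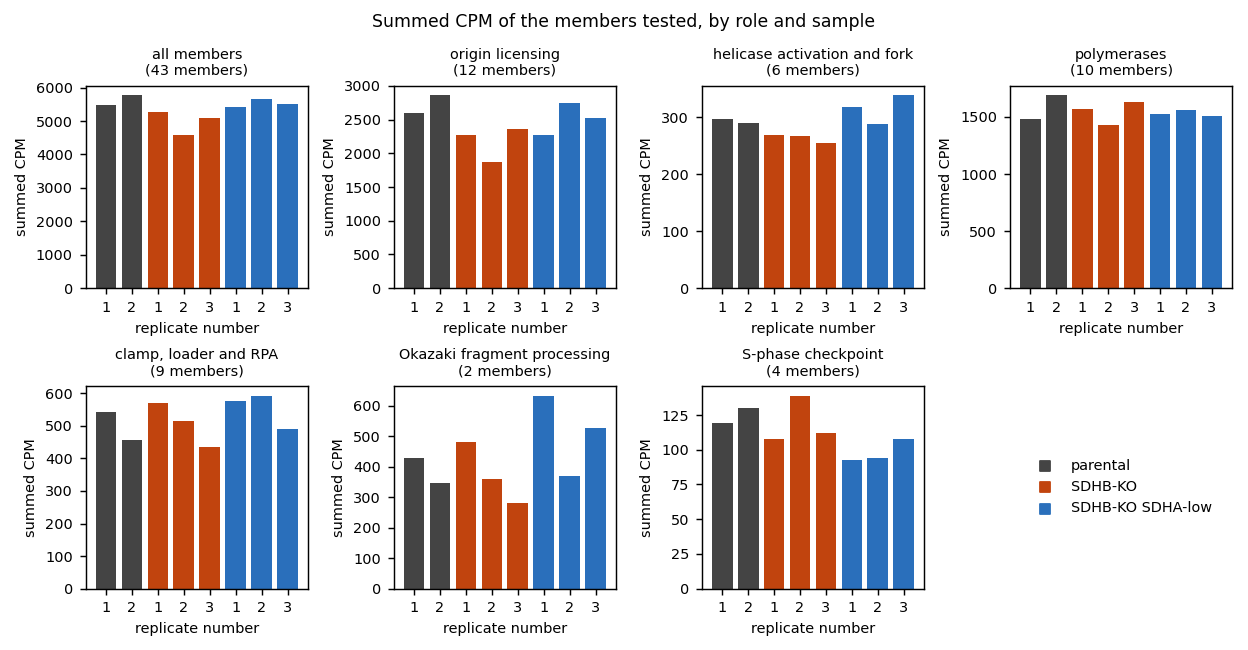
Summed CPM of the members tested in each sample, in total and by role; each bar is 1 sample, labelled by replicate number, and axes start at 0. The helicase sums are lowest in SDHB-KO samples, the licensing sums of SDHB-KO samples lie below both parental ones and overlap the SDHA-low ones, and the polymerase sums, 1430 to 1689 CPM, overlap between the groups.

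The depth set what could be seen. Of the 43 members tested, 20 had a mean count of 50 or more, and for these the median SE, on the log2 scale, was 0.26 for SDHB-KO against parental, 0.23 in SDHA-low against SDHB-KO and 0.26 in SDHA-low against parental cells. The 95% interval lay within a 2-fold change in either direction for 18, 14 and 16 of these 20. For the 23 members with lower mean counts the median SE was 0.53, 0.49 and 0.55, and the interval lay within a 2-fold change for 1, 4 and 2. Over all members 44.2%, 41.9% and 41.9% had such an interval, beside 31.7%, 44.8% and 36.4% of all genes tested. For CDC6, CDT1, MCM2, MCM3, MCM4, MCM5, MCM7, GINS2, POLD2, POLE, POLE3, POLE4, RFC2, RPA1 and RPA2 a 2-fold change thus lay outside the interval in the 3 comparisons, whereas for ORC1, ORC2, POLA1, POLD3, RFC1, RFC3 and CHEK1 it did not in at least 1 of them.

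**Figure D4:**
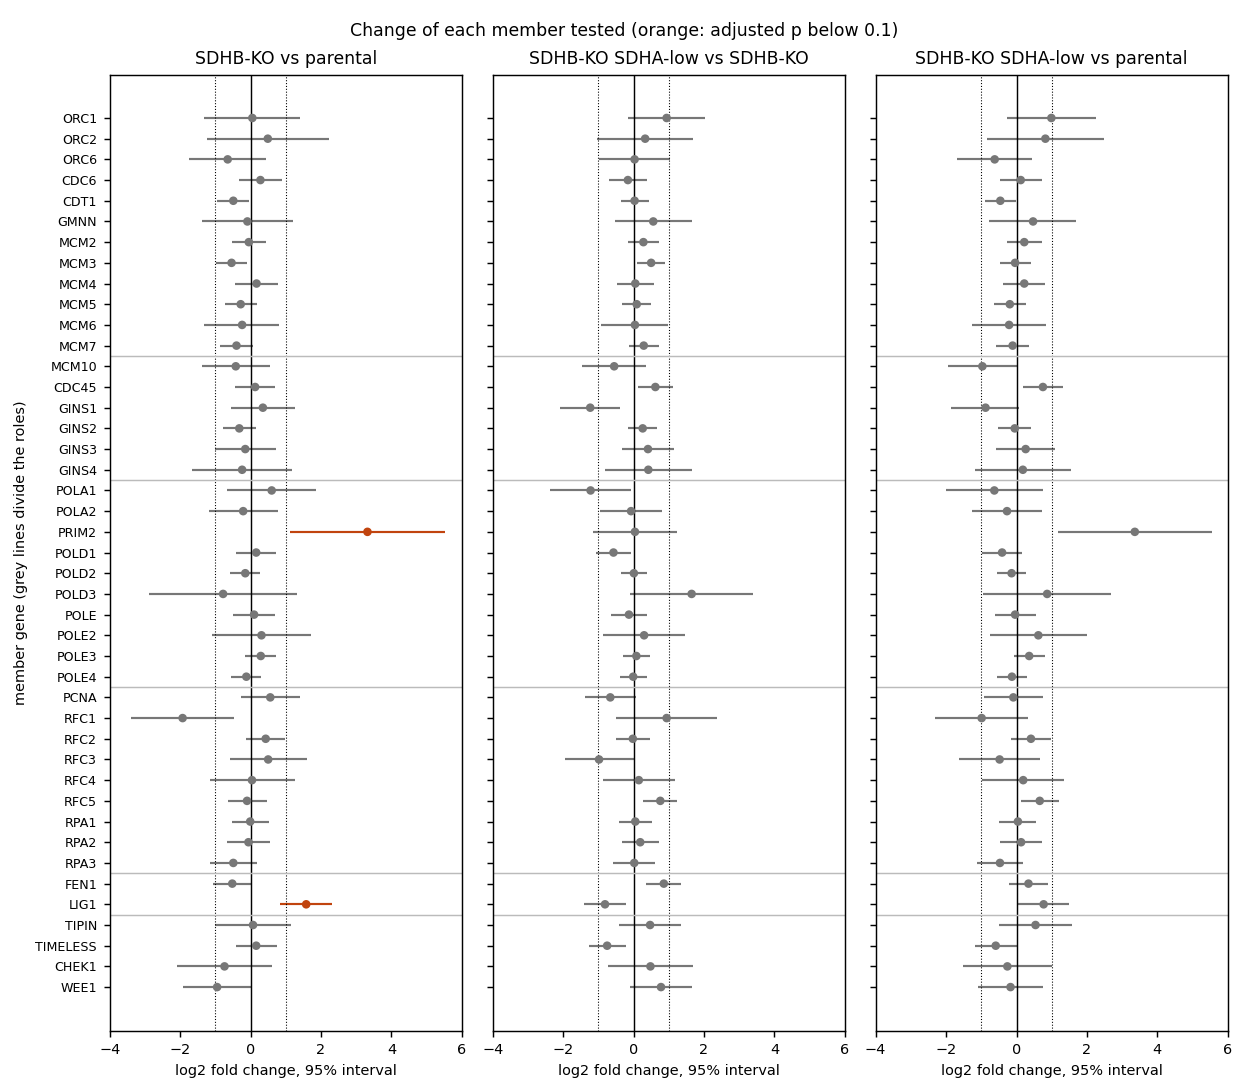
Log2 fold change (points) and 95% interval (lines) of each of the 43 members tested in the 3 comparisons, by role; dotted lines mark a 2-fold change and orange marks an adjusted p below 0.1. Only LIG1 and PRIM2 are orange, both in SDHB-KO against parental cells, and the intervals of low-count genes such as POLD3 and RFC1 are wide.

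Other genes of the same pathways were examined by the same test. Of 50 further replication and checkpoint genes 36 were tested. TOP2B, a topoisomerase, fell in SDHB-KO against parental cells, with 24 and 13 against 1, 7 and 1 counts (log2 fold change -2.65, edgeR adjusted p = 0.036), and was the 1 gene of 36 called (2.78%, beside 5.54% of all genes). In edgeR the call was lost without parental replicate 1 or 2, at log2 fold changes of -2.27 and -2.95. It was also lost without SDHB-KO replicate 1 or 3, at an edgeR adjusted p of 0.15. DESeq2 gave TOP2B no adjusted p. In SDHA-low against SDHB-KO cells 2 of 36 fell (5.56%, beside 1.51% of all genes). These were CDC25B, a phosphatase that activates cyclin-dependent kinases, with 469.3, 411.3 and 441.4 CPM in SDHB-KO against 162.9, 214.1 and 216.2 (log2 fold change -1.15, edgeR adjusted p = 0.0038), and RAD1, a subunit of the checkpoint clamp, with 64.3, 78.9 and 51.8 against 38.6, 25.4 and 24.5 CPM (log2 fold change -1.15, edgeR adjusted p = 0.068). The parental samples, at 380.6 and 334.5 CPM of CDC25B, also lay above the SDHA-low samples (log2 fold change -0.85, edgeR adjusted p = 0.085), and CDC25B was the 1 gene of 36 called there, beside 0.914% of all genes. The call of CDC25B against SDHB-KO cells held under each alternative, while that against parental cells was lost without either parental sample (0.84 and 0.26), any SDHB-KO sample (0.1 to 0.13) or SDHA-low replicate 1 (0.3) and with only the compared groups in the fit (0.18). That of RAD1 was lost without either parental sample (0.11), without SDHB-KO replicate 1 (0.17) or 2 (0.2) and without SDHA-low replicate 3 (0.26), and with only the compared groups in the fit (0.11). Of 14 deoxynucleotide supply genes 11 were tested and edgeR called 0 in the 3 comparisons, with 0, 1 and 0 at an unadjusted p under 0.05 (9.09% in SDHA-low against SDHB-KO cells, beside 12.1% of all genes).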

How the data were processed

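RNA of 8 MDAMB231 samples (2 parental, 3 SDHB-KO, 3 SDHA-low) was extracted with RNAzol, repurified with LiCl and sequenced with the QuantSeq 3′ mRNA-Seq FWD kit. According to the study's methods and the submitters' processing notes, low-quality reads were removed with Trimmomatic, ribosomal and mitochondrial reads with Sortmerna, and the rest was aligned to GRCh38 and counted per gene with STAR 2.5.2b. The authors deposited these raw counts, which were the only values used. The normalized tables that were also deposited were not used. Between 18.82% and 28.61% of the tallied reads were not assigned to a gene and were left out.

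Gene symbols and positions came from GENCODE for GRCh38. The member list, the other gene lists and the tests were chosen with earlier results of these data known. Genes with a DESeq2 base mean above 5 (7550 of 58051) were fitted with the quasi-likelihood test of edgeR 4.0.16 under R 4.3.3, with TMM scaling and all 3 groups in 1 fit (biological coefficient of variation 21.5%, 5 residual degrees of freedom). P-values were adjusted by Benjamini-Hochberg over the genes of each comparison, and an adjusted p below 0.1 was called, after the study's threshold. Values in every sample are given for members called, for the 3 largest increases and decreases per comparison and for fixed leaders of each role. Exceptions are named as such. Pseudogenes were found by symbol, and overlapping genes over the last 500 bases of each member. The scripts were tested on simulated data.

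Alternatives were DESeq2 1.42.0, its size factors, filterByExpr, no filter, fits of 2 groups, the replicate number as a block, a threshold of 0.05 and leaving out each sample. Replicate numbers did not pair the samples: same-numbered samples had correlations of -0.270 to 0.093 in their deviations from group means over 7 pairs, and 1 of 8 samples correlated best with its own number. No 2 replicates agreed within sampling noise.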

Additional observations from a re-analysis of the deposited data

How the results depend on the processing

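The direction of the log2 fold change and the side of the threshold held in 871 of 920 recalculations of 65 values of single members. Only 2 of these values were calls, so the figure mostly counts uncalled values that stayed uncalled. Fits that gave a member no adjusted p are not counted. The LIG1 call was kept in 12 alternatives and lost in 3, and the PRIM2 call was kept in 2 and lost in 5. Against 2 members called in SDHB-KO against parental cells, DESeq2, filterByExpr, the replicate block and an adjusted p below 0.05 each gave 1 (LIG1), and leaving out 1 sample gave 0 to 3, with 0 without parental replicate 1, parental replicate 2 or SDHB-KO replicate 1. Against 0 in SDHA-low against SDHB-KO cells, DESeq2 and the fit with no filter each gave 1 (FEN1), and leaving out 1 sample gave 0 to 2, the latter (FEN1 and LIG1) without SDHA-low replicate 2. The median of the members in SDHA-low against parental cells was -0.07 to 0.12 with 1 sample left out, the highest without parental replicate 1. With the replicate block the members called were 1, 0 and 0 and the medians -0.03, 0.07 and -0.07, RPA1 became 0.12 in SDHB-KO against parental and PCNA 0.10 in SDHA-low against parental cells. Among the members the block changed the call of PRIM2 alone, and in the other lists it ended those of TOP2B, CKS1B and RAD1 and, in SDHA-low against parental cells, of CDC25B, CENPF and MSN. Fitting only the compared groups ended those of RAD1 and, in SDHA-low against parental cells, of CDC25B, CENPF and MSN.

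Leaving out 1 sample turned the sign of small differences. In SDHB-KO against parental cells the ranges were -0.26 to 0.28 for RPA1, -0.55 to 0.45 for GMNN, -0.08 to 0.42 for POLD1, -0.09 to 0.30 for POLE, -0.05 to 0.39 for TIMELESS, -1.50 to 0.23 for POLD3, -0.22 to 0.12 for MCM2 and -0.09 to 0.39 for CDC45. In SDHA-low against SDHB-KO cells they were -0.07 to 0.21 for RPA1, -0.08 to 0.18 for MCM5 and -0.13 to 0.15 for CDT1. In SDHA-low against parental cells they were -0.37 to 0.26 for PCNA, -1.75 to 0.79 for RFC1, -0.50 to 0.03 for CHEK1, -0.52 to 0.29 for WEE1, -0.22 to 0.15 for POLE, -0.21 to 0.33 for RPA1 and -0.36 to 0.06 for MCM7.

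Over all genes the calls in the 3 comparisons, 418, 114 and 69, became 199, 59 and 12 with the replicate block, 777, 64 and 7 with only the compared groups, 171, 64 and 13 at an adjusted p below 0.05, and 152 instead of 69 with no filter. With 1 sample left out they ran from 0 (without parental replicate 1) to 846 (without SDHA-low replicate 2), from 39 to 375 and from 4 to 173. The cause was not tested. The 11 members under the count minimum and the 23 of low mean count limit what this depth can show.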

Other observations

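Genes of G2 and mitosis, a part of the cell cycle after replication, were looked at beside the replication genes. Of 36 listed, 28 were tested. In SDHB-KO against parental cells 2 rose and 1 fell (10.7%, beside 5.54% of all genes tested). PTTG1, which encodes securin, the inhibitor of separase, had 416.5 and 419.5 CPM in parental, 1052, 699.3 and 915.1 in SDHB-KO and 597.4, 932.7 and 481.4 in SDHA-low samples, and rose in SDHB-KO cells by 1.09 on the log2 scale (edgeR adjusted p = 0.03). This call was lost without parental replicate 1 (0.42), parental replicate 2 (0.23) or SDHB-KO replicate 1 (0.15). CKS1B, a cofactor of cyclin-dependent kinases, had 318.2 and 361.1 CPM in parental and 563.7, 524.7 and 552.5 in SDHB-KO samples and rose by 0.69 (edgeR adjusted p = 0.098). That call was lost without each parental and each SDHB-KO sample and without SDHA-low replicate 1 (adjusted p 0.11 to 0.6), and also with no filter on low counts (0.12) and with DESeq2 size factors (0.1). CENPF, a kinetochore protein gene, had 66 and 16 counts in parental, 3, 8 and 1 in SDHB-KO and 7, 9 and 14 in SDHA-low samples. It fell by 3.35 in SDHB-KO (edgeR adjusted p = 0.0082) and by 2.28 in SDHA-low against parental cells (edgeR adjusted p = 0.084). DESeq2 gave CENPF no adjusted p in these comparisons. Parental replicate 1 held most of the CENPF counts. Without that sample the log2 differences were -2.15 (adjusted p 0.46) and -1.07 (adjusted p 0.92), and the latter call was also lost without SDHB-KO replicate 1 (0.12) or SDHA-low replicate 1 (0.26) and with only the compared groups in the fit (0.15). It was the 1 gene of the 28 called in SDHA-low against parental cells (3.57%, beside 0.914% of all genes). In SDHA-low against SDHB-KO cells edgeR called 0 of the 28, beside 1.51% of all genes, with 5 at an unadjusted p under 0.05 (17.9%, beside 12.1% of all genes). At that limit there were 7 of the 28 (25%) in SDHB-KO against parental cells, beside 17.5% of all genes. The number was also 7 (25%) in SDHA-low against parental cells, beside 12.3%.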
